A study of Canis lupus familiaris with 11 samples.

Results

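This report describes 7 cadherin genes, CDH1, CDH2, CDH3, CDH4, CDH6, CDH11 and CDH13, in dog fat cells. The samples are stromal vascular fraction (SVF), a pellet of stromal, vascular and blood-derived cells obtained by digesting fat. The members were those array features whose annotation names exactly 1 of these genes, with the brightest feature over the 8 arrays of dogs 2 and 3 standing for each gene. This gave 7 of 15947 named genes, measured by 9 of 32391 features, since CDH2 and CDH13 each have a second feature. The members were chosen by the CDH2 levels in the thawed company preparations (9.42 in company B against 5.39 and 5.15), so all values from those preparations are a description, without a test.

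All samples came from visceral fat. A neutered male Labrador aged 6 years gave 3 portions of about 20 g, which companies A, B and C each digested by a method of their own, and the cells were frozen for 1 month and thawed (1 array per company). For dogs 2 and 3, both described as neutered male German Shepard mixes aged 10 years, 1 company digested all of the fat. From each of these dogs 2 arrays hold cells that were not incubated (SVF). Another 2 arrays per dog hold cells given photo-activated platelet-rich plasma (PRP) and kept for 6 h at 37 °C. PRP never came without the incubation, so every PRP difference belongs to both.

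Cadherins are calcium-dependent adhesion proteins that join neighbouring cells, mostly by binding the same cadherin on the cell opposite. The classical type I members CDH1, CDH2, CDH3 and CDH4 and the type II members CDH6 and CDH11 hold catenins on their cytoplasmic tails, which link them to the actin skeleton. CDH13 lacks such a tail, is anchored to the membrane by a lipid, and binds adiponectin. In adipose stroma CDH2 and CDH11 are known as cadherins of mesenchymal cells, CDH5 as that of endothelium, and CDH1 and CDH3 as cadherins of epithelia. The 7 members had the same symbols in the UU_Cfam_GSD_1.0 gene table of RefSeq, where the desmocollin gene DSC3 lies beside CDH2, CDH26 beside CDH4 and CDH8 beside CDH11.

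The deposited values are log2 levels. Array medians were 5.14 to 5.31 in the 3 company arrays and 6.76 to 6.85 in the 8 others, so levels were compared only within each of these sets. The company B array stood apart: over all features it correlated at r = 0.940 with A and 0.943 with C, against 0.977 between A and C. On the company arrays 29.5% of features had an identical value on all 3. No detection call was used, and members below the array medians are given as levels and log2 differences. In dogs 2 and 3 those below were CDH1, CDH2, CDH3 and CDH4 on all 8 arrays and CDH6 on the 4 arrays of dog 3, while CDH11 and CDH13 were above the median on all 8.

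**Figure D1:**
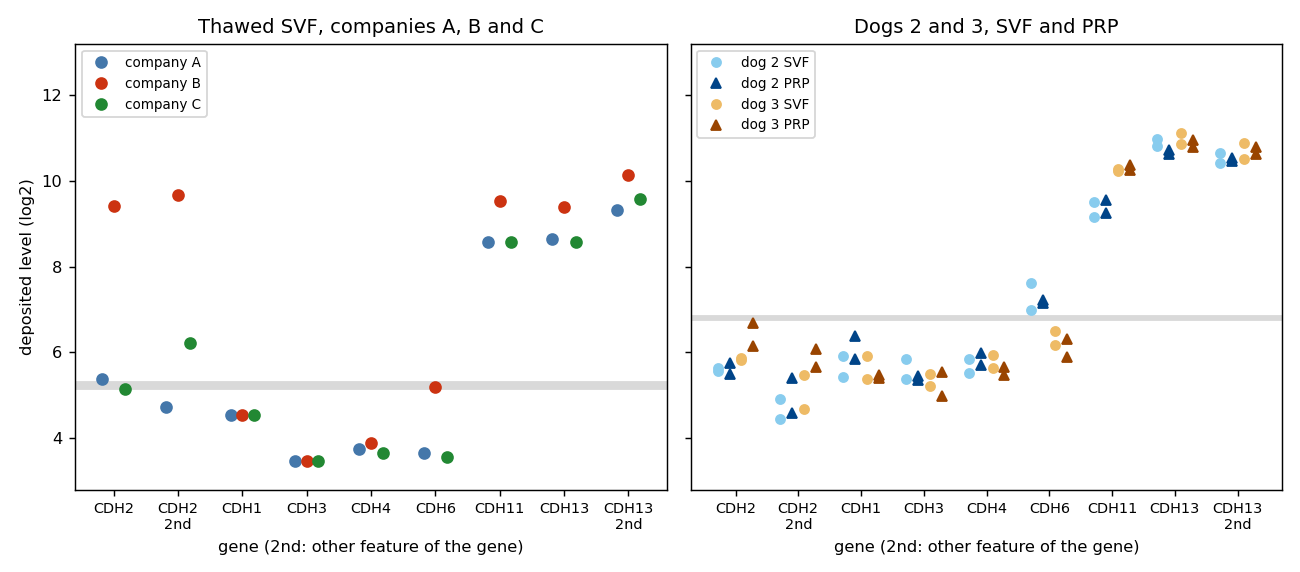
Deposited log2 level (y axis) of each cadherin feature (x axis) in the 3 company arrays (left) and in the 8 arrays of dogs 2 and 3 (right), with 1 point per array and a grey band for the range of the array medians. Company B lies far above A and C for both CDH2 features, and the dogs are separated for CDH6 and CDH11.

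The first comparison was among the 3 companies. CDH2, which encodes N-cadherin, the adhesion molecule of neurons, heart muscle and mesenchymal cells, stood at 5.39 in company A, 9.42 in company B and 5.15 in company C. Company B was thus 4.04 log2 units above A and 4.28 above C, while A and C lay 0.24 apart. The second CDH2 feature read 4.72, 9.67 and 6.22, which puts B 4.95 above A and 3.45 above C. Both features placed company B far above the others, but they disagreed on the other companies: C lay 1.49 above A in the second feature and 0.24 below it in the first. By its distance above the higher of A and C, CDH2 ranked 3 among the 15947 genes, after UCHL1 (4.86) and FABP3 (4.46). There was no replicate array for any company. In these bulk samples fewer cells of a type and less RNA per cell cannot be told apart.

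The other type I cadherins among the members were dim and nearly flat. CDH1, the E-cadherin of epithelia, had one identical value of 4.54 on all 3 arrays, and CDH3, the P-cadherin of placenta and basal epithelium, one of 3.47. CDH4, the R-cadherin first known from the retina, was 3.76, 3.90 and 3.66 in A, B and C. These 3 genes lay below the median of every company array, and no order of the companies can be read from the first 2.

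Both type II cadherins among the members were highest in company B. CDH6, or K-cadherin, known from the developing kidney, was 3.66, 5.20 and 3.56 in A, B and C, so that B lay 1.54 above A and 1.64 above C. In A and C it was below the array median, and in C below the lower quartile (3.58). CDH11, or OB-cadherin, found in osteoblasts and other mesenchymal cells, was 8.57, 9.54 and 8.58, with B 0.97 above A and 0.96 above C. For both genes A and C were within 0.10 of each other.

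CDH13, or T-cadherin, followed the same order at a smaller distance. Its levels were 8.64, 9.41 and 8.58 in A, B and C, with B 0.76 above A and 0.82 above C. Its second feature read 9.34, 10.15 and 9.59, with B 0.81 above A and 0.56 above C. ADIPOQ, the adiponectin gene whose product CDH13 binds, was lowest in B (6.06, 5.40 and 6.85 in A, B and C).

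In all, company B was the highest of the 3 in 5 of 7 members (28.5% of all genes) and at least 2-fold above both others in 2 of 7, CDH2 and CDH6 (2.84% of all genes). The median member difference was 0.76 for B minus A and 0.82 for B minus C, beside medians of 0 over all genes. Some pair of companies differed by at least 2-fold in the same 2 of 7 (12.6% of all genes), and by at least 1.5-fold in 4 of 7, with CDH11 and CDH13 added (25% of all genes). No member differed by 2-fold between C and A (1.64% of all genes). The members were chosen with these arrays in view, and nothing is read from these shares. With each array centred on its median, CDH11 also passed 2-fold (B minus A 1.14).

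**Figure D2:**
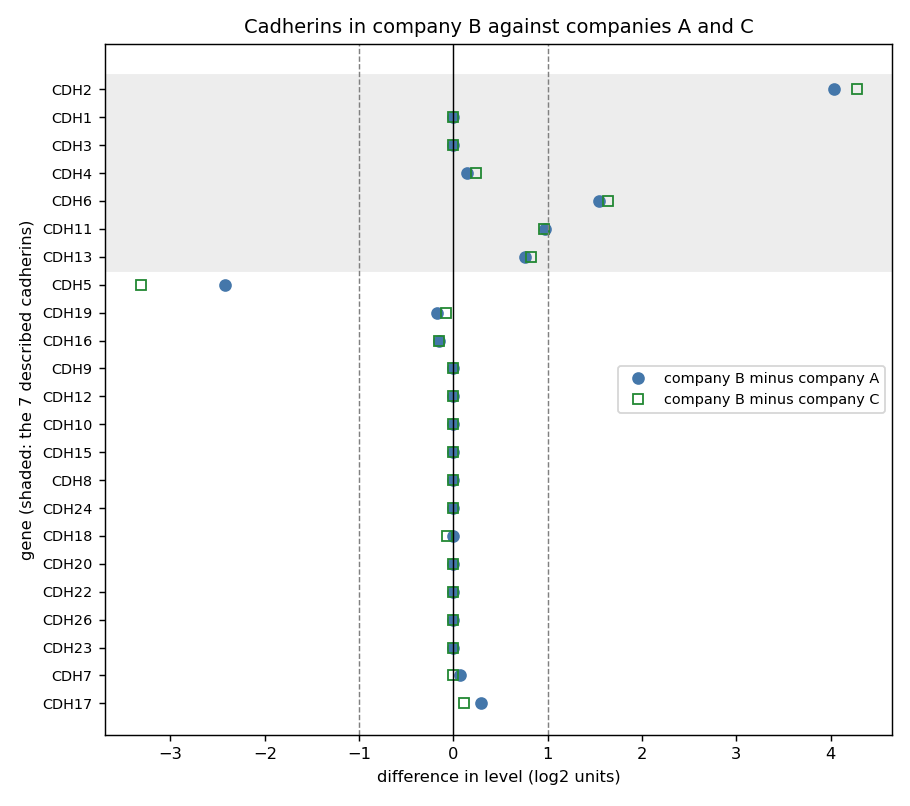
Difference in log2 level between company B and company A (filled circles) or company C (open squares) for the 7 members (shaded) and 16 other cadherins, with dashed lines at 2-fold. CDH2 is the farthest to the right at 4.04 and 4.28, and CDH5 the farthest to the left.

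Of the 16 other classical and related cadherins measured, 10 were identical on all 3 company arrays, as were 32.8% of all genes. Spans were under 0.3 in 15 of 16, a share that was not counted over all genes. The exception was CDH5, or VE-cadherin, which joins endothelial cells. It stood at 6.74 in A, 4.32 in B and 7.64 in C, so company B was 2.42 below A and 3.32 below C. CDH17 and CDH19 had the next widest spans, 0.29 and 0.18. By the difference of company B from A and C, though not by level, CDH2 and CDH5 thus lay at opposite ends of these cadherins.

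Of 16 measured genes for catenins and other junction proteins, 13 spanned under 0.3 over the companies, a share not counted over all genes. Of the same 16, 4 were identical on all 3 arrays (32.8% of all genes). CTNNB1, the beta-catenin that binds cadherin tails, was 10.05, 10.07 and 10.06. LIMA1, an actin-bundling partner of alpha-catenin, was 10.12, 8.96 and 9.53 in A, B and C. AJUBA, a LIM protein of junctions, was 5.95, 6.74 and 5.81, and PKP4, a catenin-like junction protein, 7.17, 7.57 and 7.32. Among 11 desmosome genes 10 spanned under 0.3, again without a share over all genes. Identical on all 3 arrays were 6 of 11 (32.8% of all genes). The 1 with a wider span was DSC3, the gene beside CDH2, at 3.32, 4.02 and 3.30, below the medians of these arrays.

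Transcription factors known for switching between CDH1 and CDH2 had no common order. Of 8 measured, 4 were highest (28.5% of all genes) and 2 lowest (19.8% of all genes) in company B. SNAI1, a repressor of CDH1, was 7.54, 6.08 and 8.14 in A, B and C, and ZEB2, another such repressor, was 10.64, 9.46 and 10.03. TWIST2, a mesenchymal factor, went the other way at 5.19, 6.62 and 5.70. So did SNAI2 (9.35, 10.24 and 9.60), TCF3 (6.40, 6.95 and 6.45) and PRRX1 (9.72, 10.52 and 9.63). Of 8 genes for cadherin cleavage, some subunits of the gamma-secretase complex, which cuts membrane stubs, had the widest spans. NCSTN was 7.87, 8.87 and 8.04 and PSENEN 9.12, 10.14 and 9.97. PSEN2, of the same complex, had one identical value of 5.62 on all 3 arrays.

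**Figure D3:**
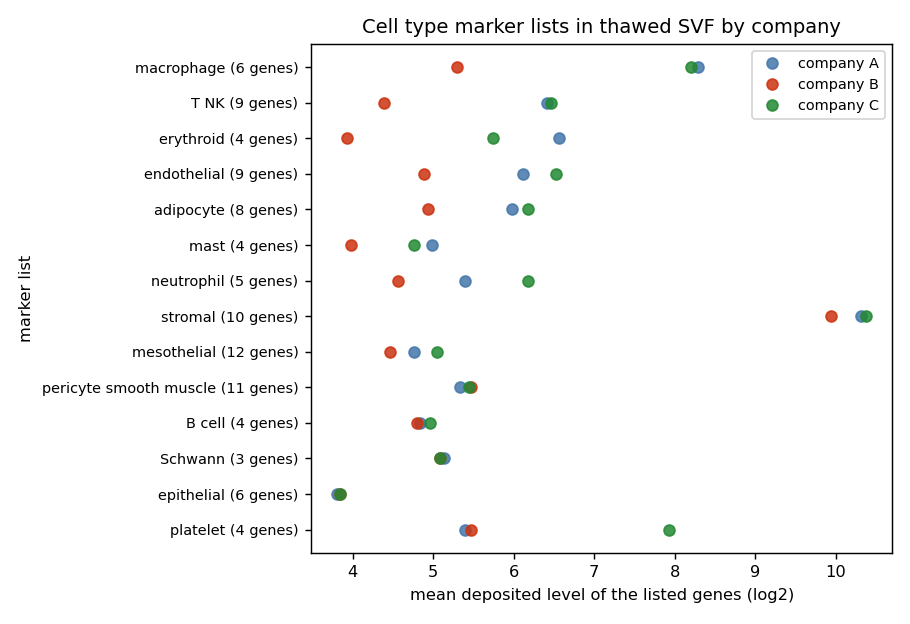
Mean log2 level of the measured genes of 14 cell type marker lists (y axis) in the arrays of companies A, B and C (1 point per array). Company B lies lowest for macrophage, T and NK, erythroid, endothelial and adipocyte lists, and company C highest for platelet genes.

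Markers of the other cells that SVF holds differed on the same array. In company B all 6 macrophage genes measured were lower by at least 2-fold than in both other companies (4.6% of all genes), with a mean level of 5.30 against 8.29 in A and 8.21 in C. T and NK genes had 8 of 9 genes lowest in B (19.8% of all genes were; mean 4.39 against 6.41 and 6.47), and endothelial genes 7 of 9 (4.89 against 6.11 and 6.52). The endothelial marker PECAM1 read 8.62 in A, 3.99 in B and 9.18 in C, and the T cell marker CD3E 6.60, 3.52 and 6.46. Both lay below the company B array's median of 5.14, and CD3E below its lower quartile of 3.57. Other markers of these cells were above that median and close to their level in A. For endothelium these included ERG (6.64 in A, 6.64 in B and 6.96 in C) and ESAM (6.35, 6.16 and 6.84), and for T cells CD5 (5.91, 5.83 and 6.01). The ERG values of A and B were identical, so no order of these companies can be read from them. Adipocyte genes were lowest in B in 6 of 8 (mean 4.93 against 5.97 and 6.18) and erythroid genes in 3 of 4 (3.93 against 6.56 and 5.75). Stromal genes were split, with 5 of 10 lowest and 4 of 10 highest in B (mean 9.94 against 10.32 and 10.38). Examples are PI16, a fibroblast marker of fat (11.94, 6.51 and 12.09), and DPP4 (7.63, 11.31 and 7.76). Pericyte and smooth muscle genes were split too, with 5 of 11 highest and 2 of 11 lowest in B (mean 5.46 against 5.34 and 5.44). ACTA2 (6.40, 8.38 and 6.79 in A, B and C) and TAGLN (7.75, 9.81 and 8.33) were at least 2-fold above both others in B. RGS5 (6.13, 5.13 and 6.31) and ABCC9 (6.79, 4.65 and 6.87) were at least 2-fold below both. Mesothelial genes had a mean of 4.46 in B against 4.77 and 5.04, and 7 of 12 were identical on all arrays. Epithelial genes had means between 3.81 and 3.85. The part of these cells in the cadherin differences was not tested.

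The genes whose company profile lay closest to that of CDH2 were found by the Euclidean distance of the 3 values, each taken from the gene's own mean, among 9919 genes brighter than the median. They were SQLE, an enzyme of cholesterol synthesis (distance 0.35), ANLN, an actin-binding protein of dividing cells (0.47), ASNS, asparagine synthetase (0.47), DPP4, a surface peptidase (0.51), and FABP3, a fatty acid binding protein (0.56). SQLE read 7.28, 10.94 and 7.12 in A, B and C, and ANLN 6.10, 9.69 and 6.07. With 3 arrays, nearness here means little more than being about 4 log2 units higher in B with A and C level.

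The next comparison was PRP with incubation against untreated SVF in dogs 2 and 3. None of the 7 members passed adjusted p 0.05 over all features (limma; 0.00627% of all genes passed, and 0 of 7 members had an unadjusted p below 0.05, against 8.32% of genes). The median member difference was -0.033, beside -0.014 over all genes, with 3 members above zero and 4 below. No member had its PRP and SVF arrays apart in the same direction in both dogs (13.6% of all genes).

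CDH2 had the largest difference of the members. Its levels in dog 2 were 5.57 and 5.64 in SVF and 5.50 and 5.74 after PRP, and in dog 3 they were 5.86 and 5.81 in SVF and 6.16 and 6.70 after PRP. The dog 2 groups overlapped, while in dog 3 the PRP arrays were both higher than either SVF array, as for 10.2% of genes. The difference was 0.30 ± 0.15 over both dogs (SE, limma, adjusted p = 0.565). It was 0.02 ± 0.22 in dog 2 and 0.59 ± 0.22 in dog 3 (SE, limma, adjusted p = 0.999 and 0.804; unadjusted p = 0.940 and 0.0294). An unadjusted p below 0.05 was found for 0 of 7 members in dog 2 (2.46% of genes) and for CDH2 alone, 1 of 7, in dog 3 (4.63% of genes). The difference between the dogs did not pass either (-0.57 ± 0.31 for dog 2 minus dog 3, SE, limma, unadjusted p = 0.105, with 0.552% of genes below 0.05).

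The dog 3 difference was uneven between its arrays. It was 0.29 in the number 1 arrays and 0.88 in the number 2 arrays, and without dog 3 PRP replicate 2 it was 0.32. The second CDH2 feature gave 0.55 ± 0.26 over both dogs (SE, limma, adjusted p = 0.540), with 0.19 and 1.39 in the number 1 and number 2 arrays of dog 3. All 8 arrays of dogs 2 and 3 stayed within 1.20 log2 units for the first feature (5.50 to 6.70) and within 1.64 for the second. On the company arrays the spans were 4.28 and 4.95. Array medians differed between the 2 sets, so the spans of the sets are not compared. In dog 3 the mean level of 4 B cell markers was 7.17 and 7.12 after PRP against 6.72 and 6.58 in SVF, with 3 of 4 higher and PAX5 lower. In dog 2, where CDH2 overlapped, it was 6.77 and 6.53 against 6.34 and 6.47. T and NK markers averaged 7.87 and 7.69 after PRP against 7.65 and 7.24 in dog 3, and 7.88 and 7.47 against 7.31 and 6.86 in dog 2. The mean of 4 platelet markers was also higher after PRP in both dogs, mostly through PPBP, a platelet chemokine (2.16 in dog 3 and 3.26 in dog 2), as their median difference was 0.16 in dog 3 and 0.26 in dog 2. Some other lists went the other way in dog 3. Lower after PRP were 7 of 8 adipocyte, 9 of 11 pericyte and smooth muscle and 8 of 9 endothelial markers. Their medians were -0.84, -0.53 and -0.41. In dog 2 these lists had 7 of 8, 10 of 11 and 6 of 9 lower (medians -0.30, -0.17 and -0.11). The part of any of these cells in the CDH2 values was not tested.

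**Figure D4:**
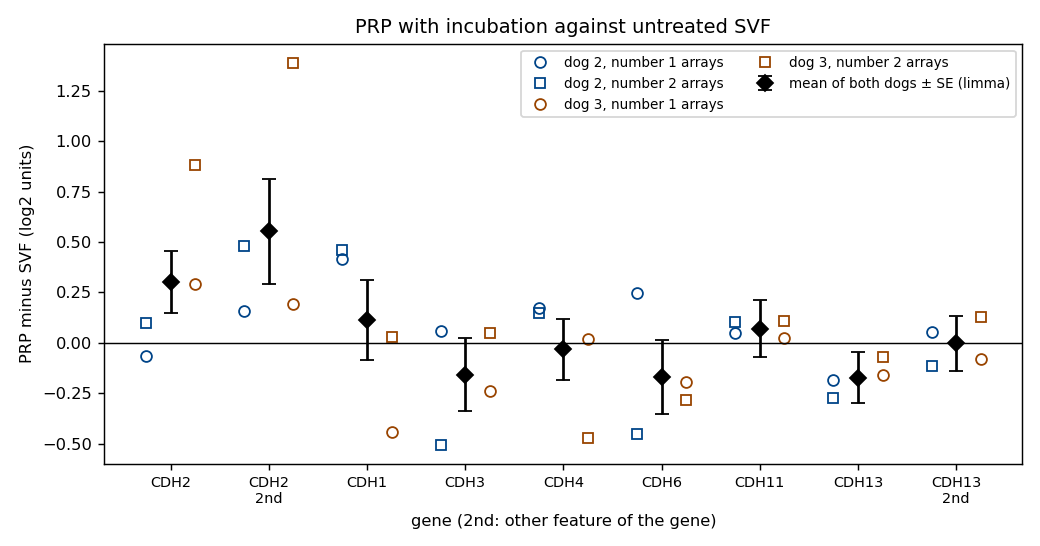
PRP minus SVF in log2 units (y axis) for each cadherin feature (x axis). Open symbols are same-numbered arrays of dog 2 (blue) and dog 3 (brown), and black diamonds are the mean of both dogs with its standard error from limma. The number 2 arrays of dog 3 lie highest for CDH2, at 0.88 and, in its second feature, 1.39. CDH13's first feature lies below zero and CDH11 slightly above zero in all 4 pairs, and the other 4 members have pairs on both sides of zero.

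No change was detectable in the other type I cadherins among the members. CDH1 was 5.43 and 5.92 in SVF and 5.84 and 6.38 after PRP in dog 2, and 5.92 and 5.39 against 5.48 and 5.42 in dog 3. The groups overlapped in both dogs, and the differences ran opposite ways (0.44 ± 0.28 and -0.21 ± 0.28, SE). That contrast between the dogs was 0.65 ± 0.40 (SE, limma, unadjusted p = 0.144). CDH3 ranged from 4.98 to 5.86 and CDH4 from 5.47 to 6.00 over the 8 arrays. Their PRP differences were -0.16 ± 0.18 and -0.03 ± 0.15 (SE).

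Among the brighter members, CDH13 stood at 10.81 and 10.99 in SVF and 10.63 and 10.72 after PRP in dog 2, where both PRP arrays were lower (16.1% of genes). In dog 3 it was 11.13 and 10.87 against 10.97 and 10.80, with overlap. Its difference was below zero in all 4 same-numbered pairs (-0.27 to -0.072) and was -0.17 ± 0.13 over both dogs (SE, limma, adjusted p = 0.684), while the second feature gave -0.0030 ± 0.14. CDH11 differed by 0.07 ± 0.14, with all 4 pairs between 0.025 and 0.11, and CDH6 by -0.17 ± 0.19 (SE). For each of these genes the difference was within about 1.5 times its standard error, so none was detectable at this number of arrays.

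Over the 5 pathway lists, 0 genes passed over all features in either direction after PRP. Junction and catenin genes were lower in 12 of 16 (median -0.11), desmosome genes in 11 of 11 (-0.083), other cadherins in 9 of 16 (-0.030), switch factors in 4 of 8 (-0.056) and cleavage genes in 4 of 8 (0.053). The median over all genes was -0.014, and the share of all genes that were lower was not counted. Array medians were also lower after PRP, at 6.76 to 6.77 against 6.80 to 6.85 in SVF. Nothing is therefore read from these counts and small medians. CDH19, a cadherin of Schwann cells, had the smallest p of its list, with a difference of -0.58 ± 0.15 (SE, limma, adjusted p = 0.404). This came mostly from dog 3 (-1.06 ± 0.22, against -0.11 ± 0.22 in dog 2, SE). The dog 3 SVF arrays averaged 5.16, and the other groups 4.11 to 4.27, which is dim on these arrays. AFDN, which links nectins to actin, differed by -0.39 ± 0.13 and ADAM15, a membrane metalloprotease, by -0.57 ± 0.16 (SE, limma, adjusted p = 0.466 and 0.438). CDH5 differed by -0.31 ± 0.16 (SE, limma, adjusted p = 0.556).

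Lastly, dog 2 was set against dog 3. CDH11 in dog 2 was 9.52 and 9.15 in SVF and 9.57 and 9.26 after PRP, and in dog 3 it was 10.22 and 10.28 in SVF and 10.25 and 10.38 after PRP. All 4 dog 3 arrays lay above all 4 of dog 2. CDH6 ran the other way, at 6.99 and 7.62 in SVF and 7.24 and 7.17 after PRP in dog 2, against 6.51 and 6.19 in SVF and 6.31 and 5.90 after PRP in dog 3. Each dog's 4 arrays kept apart for CDH6, CDH11 and CDH2 (3 of 7 members, 16% of all genes).

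In untreated SVF the dog 2 minus dog 3 difference was -0.91 ± 0.20 for CDH11 and 0.95 ± 0.26 for CDH6 (SE, limma, adjusted p = 0.0907 and 0.162). No member passed there (1.72% of genes did), though both of these had an unadjusted p below 0.05 (12.8% of genes). The other 5 members differed by between -0.23 and 0.27. Over both conditions, a contrast added after the values were seen, CDH11 was lower in dog 2 (-0.91 ± 0.14) and CDH6 higher (1.02 ± 0.19; SE, limma, adjusted p = 0.0117 and 0.0200), which made 2 of 7 members (7.52% of genes). CDH2 differed by -0.52 ± 0.15 without passing (SE, limma, adjusted p = 0.116), but passed without dog 3 PRP replicate 1 (-0.65, adjusted p = 0.0460). The CDH11 call was lost without dog 2 PRP replicate 2 (limma, adjusted p = 0.0504). The CDH6 call was lost without dog 2 PRP replicate 1 or 2 (limma, adjusted p = 0.0770 and 0.0644), dog 2 SVF replicate 2 (0.0600), dog 3 SVF replicate 1 or 2 (0.0506 and 0.0744) or dog 3 PRP replicate 2 (0.0568). Each side is 1 animal, so the dog cannot be told apart from its fat and its preparation.

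Cell type markers and other junction genes differed between the dogs too. Over both conditions all 9 endothelial markers passed and were higher in dog 2, where their mean level was 10.39 to 10.67 against 8.59 to 9.19 in dog 3. Of 11 pericyte and smooth muscle markers 10 were called higher in dog 2 (mean level 8.87 to 9.19 against 7.36 to 7.91). Of 10 stromal markers 4 were called lower (10.60 to 10.79 against 11.39 to 11.62). CDH5 was 1.66 ± 0.16 higher in dog 2 (SE, limma, adjusted p = 0.00193), and 6 of 16 junction genes were called higher, among them AFDN (0.97 ± 0.13, limma, adjusted p = 0.00603). PRRX1, a mesenchymal transcription factor, was lower in dog 2 (-1.32 ± 0.12; SE, limma, adjusted p = 0.00178). AFDN, CDH5 and PRRX1 were named after their values between the dogs were seen. Whether the marker differences bear on CDH6 and CDH11 was not tested.

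Over the 8 arrays of dogs 2 and 3, the genes most like CDH2 by Pearson's r among 10224 genes brighter than the median were POU2AF1, a B cell coactivator (r = 0.977, rho = 0.857), MSC, a helix-loop-helix repressor (0.968, rho = 0.905), and PIR, an iron-binding nuclear protein (0.963, rho = 0.929). SLC16A1, a lactate transporter, and ELL2, a transcription elongation factor, followed (r = 0.961 and 0.959). These values describe 8 arrays from 2 dogs that share 2 conditions and were picked as the highest of many, so they carry no test.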

How the data were processed

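Total RNA (6 µg per sample) from 11 canine SVF samples was biotin-labelled for Affymetrix arrays, per the labels' protocols. The authors deposited log2 levels, as judged from their range (1.22 to 14.8). Partek is named, per the submitters' processing notes, and the normalization was not given in the sources used here. The number of arrays limits the precision, and the labels do not say that the 2 arrays of a group were separate preparations, so the p-values reflect only how these arrays vary, which may be technical. The members, lists and tests were chosen with earlier results of these data known. In R 4.3.3, limma 3.58.1 (lmFit, then eBayes) was run on the 8 arrays of dogs 2 and 3 with a mean for each of 4 groups, with Benjamini-Hochberg adjustment over 32391 features, no filter and a threshold of 0.05, after the fit was tested on simulated data. Company differences have no test. Named genes were the members, up to 3 genes per pathway list with the widest company range, up to 2 with the smallest PRP p, list markers as examples, and the 5 genes most like CDH2 in each set. ADIPOQ, CTNNB1, CDH5 beyond its company values, UCHL1, FABP3 by rank, AFDN and PRRX1 between dogs were named outside that rule. So were SNAI2, PRRX1 and PSEN2 across the companies. Not named on the array's single-gene features were NECTIN3, TWIST1 and 11 listed markers. The main fit did not assume that the numbers from the titles pair the arrays, so its standard errors and p-values ignore any pairing. Same-numbered SVF and PRP arrays deviated together (r = 0.230 in dog 2 and 0.160 in dog 3, the same for both numbers because each group has 2 arrays). A fit with same-numbered pairs as a block was therefore an alternative. Protein and promoter sequences were not used here.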

Additional observations from a re-analysis of the deposited data

How the results depend on the processing

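Precision is limited by 1 array per company and 2 per dog and condition, and dim members had no measure of signal over background. The count of 0 members called after PRP was the same under every alternative, in both dogs together, in each dog and for the difference between them. With the replicate block of same-numbered pairs it was 0, with CDH2 at 0.30 (limma, adjusted p = 0.474), and the block changed no other member's call. The range for CDH2 over both dogs was 0.17 to 0.44 with 1 array left out (limma, adjusted p between 0.220 and 0.892). Small PRP differences changed sign. CDH4 was 0.041 with arrays centred on their medians, 0.0077 with quantile normalization within the 8 arrays and 0.0085 over all 11. The second CDH13 feature was 0.025 in dog 3. With 1 array left out, ranges across zero over both dogs were -0.019 to 0.25 for CDH1, -0.11 to 0.048 for CDH4 and -0.021 to 0.16 for CDH11. In dog 2 they were -0.11 to 0.14 for CDH2, -0.46 to 0.014 for CDH3, -0.00020 to 0.32 for CDH4, -0.42 to 0.21 for CDH6 and -0.11 to 0.26 for CDH11, and in dog 3 -0.47 to 0.058 for CDH1, -0.38 to 0.19 for CDH3 and -0.25 to 0.013 for CDH13. Between the dogs in untreated SVF they were -0.25 to 0.28 for CDH1, -0.27 to 0.052 for CDH4 and -0.22 to 0.034 for CDH13, and CDH13 was 0.0011 and 0.0015 with quantile normalization within 8 and over 11 arrays. There 1 member, CDH11, passed when features were averaged per gene (limma, adjusted p = 0.0418 over fewer tests). Over both conditions the count of 2 members was 0 to 3 with 1 array left out. Among companies, 4 members (CDH2, CDH6, CDH11 and CDH13) differed by at least 1.5-fold, against 2 at 2-fold. The cause of these changes was not tested.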

Other observations

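The 5 genes most like CDH2 over the arrays of dogs 2 and 3 did not share 1 order across the companies. MSC (6.56, 7.87 and 7.00 in A, B and C) and PIR (9.60, 10.77 and 9.52) were highest in company B, as CDH2 was. POU2AF1 (6.02, 4.42 and 5.63) and ELL2 (9.27, 7.83 and 9.82) were lowest there, and SLC16A1 was highest in company C (6.42, 6.67 and 7.92). The 2 features of CDH2 correlated at r = 0.867 over the 8 arrays and those of CDH13 at r = 0.809, as a description of arrays that share dogs and conditions.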
